A study of Homo sapiens and Mus musculus with 5 samples.

Results

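The schizophrenia-linked SNPs described here lie within 1 kb of an end of LY6H, ALMS1, DTNB, BRD1, PCNX1 or YWHAB, 1 SNP per gene. They were measured by STARR-seq, in which a DNA fragment cloned into the transcribed part of a reporter plasmid drives the amount of its own RNA. The 6 SNPs occurred in 16 of the 984 fragments of the tables, as 26 alleles of fragments. They were chosen by chromosome and position with RNA over input values of these libraries already known, and the rule does not state which values weighed in the choice. Activity, and the counts of alleles called active, are therefore given as a description and support nothing. Of 327 SNPs named by position, 20 lay within 1 kb of an end of a protein-coding gene, so 14 others could have been named. The member farthest from its gene end, at DTNB, was 940 bases away, and the first SNP outside the limit was 1017 bases away.

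A fragment carried 1 allele of the SNP with 200 bases beside it, of which 50, 100 or 150 stood in front of the SNP. The same plasmid pool was transfected, with no further treatment, into cells of 4 established lines. HEK-293T is of human embryonic kidney origin, and SH-SY5Y is a human neuroblastoma. Neuro-2a is a mouse neuroblastoma, and PC-12, labelled as mouse, is known as a rat pheochromocytoma. The human sequences were thus tested in rodent cells in both of these. There were 3 RNA libraries per line, except that PC-12 had replicates 1 and 3, and 3 libraries of the untransfected plasmid pool, the input, served all lines. The tables number the alleles 1 and 2 without their bases, and the fragment sequences were not used here.

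Enhancers are DNA segments that bind transcription factors and raise transcription from a promoter. On a plasmid their sequence is read apart from its chromatin and from the gene it lies near, so a value here says nothing of regulation of that gene. Moving the SNP within the fragment keeps the allele and changes which flanking bases are included. LY6H encodes a small membrane-anchored Ly6 protein of the brain that acts on nicotinic acetylcholine receptors. DTNB encodes beta-dystrobrevin, a partner of dystrophin family proteins, and ALMS1 a protein of centrosomes and the base of cilia that is mutated in Alström syndrome. BRD1 encodes a scaffold of histone acetyltransferase complexes, PCNX1 a membrane protein related to fly pecanex, and YWHAB the beta form of the 14-3-3 adaptors, which bind phosphorylated proteins.

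Gene positions are those of RefSeq on GRCh38.p14. The labels and tables used here name no build for the SNP positions, so the gene names and distances hold only if they follow that build. The SNP at LY6H is at position 143160497 of chromosome 8, inside the gene (143157916 to 143160654), 157 bases from its higher-coordinate end, and also inside the noncoding gene LOC124902035. The SNP at PCNX1 is at position 70907985 of chromosome 14, inside the gene (70907459 to 71115382) and 526 bases after its start. The SNP at YWHAB is at position 44907814 of chromosome 20, inside the gene (44885705 to 44908532) and 718 bases before its 3′ end. The remaining 3 SNPs lie past the 3′ end of their gene. For ALMS1 (73385758 to 73609919, forward strand) the SNP is at position 73610828 of chromosome 2, 909 bases past that end. For DTNB (25377243 to 25673577, reverse strand) it is at position 25376303 of chromosome 2. For BRD1 (49773278 to 49827873, reverse strand) it is at position 49772916 of chromosome 22, 362 bases past that end. The gene table holds no exons, so whether the 3 inner positions are exonic, intronic or untranslated is not given.

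Library totals were 5875437 to 10201521 counts for RNA and 6380682 to 8421333 for the input. HEK-293T replicate 2 and PC-12 replicate 3 had the most alleles at 0, with 256 of 1561 and 159 of 1614. Of the 268 RNA values of the 6 SNPs, 12 were 0, on 7 alleles of fragments. ALMS1 allele 2 with 100 bases in front, for example, had 26328, 19957 and 0 counts in the Neuro-2a RNA libraries, in replicate order. Of the 26 alleles, PC-12 held all, SH-SY5Y 25, Neuro-2a 24 and HEK-293T 23, and each reached the minimum mean of 10 counts. The input served all lines, so an allele missing for a line was still in the plasmid pool. Why it was missing is not given. DTNB was represented by allele 2 alone. The labels call the replicates biological without saying that they came from separate cultures, so the p-values measure the spread between these libraries, which may be technical.

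Activity is the log2 of RNA over input of 1 allele of 1 fragment, on a scale where the middle of the library is near 0. The input is shared, so an error in an allele's input count moves its values in all libraries together. LY6H and DTNB had the highest values, reaching 19.5-fold and 14.4-fold over the input in their highest line. At ALMS1, 2 alleles of fragments stood at 2.14- to 4.33-fold in every line. BRD1 and PCNX1 were above the input in one placement and below it in another, and YWHAB was highest in PC-12 with 50 and 100 bases in front. The median over the alleles of the 6 SNPs was 0.69 in HEK-293T, 0.49 in Neuro-2a, 0.75 in PC-12 and 0.50 in SH-SY5Y. Over the alleles of the 14 other SNPs near a gene end it was 0.04, 0.30, 0.33 and 0.24 in the same order of lines, and over all alleles -0.11, 0.01, -0.01 and -0.01.

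By edgeR's quasi-likelihood test at a Benjamini-Hochberg adjusted p under 0.05, 3 of 23 alleles were above the input in HEK-293T, against 1.35% of all alleles. In Neuro-2a 4 of 24 were, against 4.08%, in PC-12 7 of 26, against 5.64%, and in SH-SY5Y 7 of 25, against 7.43%. One allele of the 6 SNPs was below the input by edgeR, in SH-SY5Y, where 5.51% of all alleles were. The other lines had 0 below, against 1.02%, 1.70% and 4.77% in HEK-293T, Neuro-2a and PC-12, and DESeq2 also called 0 below there. In SH-SY5Y DESeq2 and limma-voom each called 2 below. In both directions 2.37%, 5.78%, 10.4% and 12.9% of all alleles were called, with SH-SY5Y last. At an unadjusted p under 0.05 there were 9, 8, 12 and 12 alleles of the 6 SNPs. The share of all alleles at that threshold was not counted, and the shares above are at the adjusted p. Since these SNPs were chosen with such values known, nothing is read from the counts.

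Every RNA library was above the input for 9 alleles in HEK-293T, 8 in Neuro-2a, 15 in PC-12 and 11 in SH-SY5Y. Among all alleles the shares were 18.4%, 22.2%, 28.6% and 22.5%. Every library was below the input, a count of 0 included, for 3, 5, 6 and 4 alleles, against 30.4%, 26.5%, 36.4% and 31.9% of all. The calls moved with single libraries. Without any 1 of the input libraries 0 alleles of the 6 SNPs were called in any line. Of all alleles 0 were then called in HEK-293T, Neuro-2a and PC-12, and 3 of 1562 in SH-SY5Y. Without RNA replicate 1 there were 9 above and 2 below in HEK-293T, against 19.4% and 12.4% of all alleles. There were 8 and 3 in Neuro-2a, against 25.1% and 16.2%, and 12 and 3 in SH-SY5Y, against 30.7% and 24.2%. Without RNA replicate 2 the number called was 6 in HEK-293T, where 165 of 1561 of all alleles were, and 5 in SH-SY5Y, where 193 of 1562 were. With 1 RNA library left in PC-12 most alleles of the table were called: 25 of the 6 SNPs and 1454 of 1613 of all without replicate 1, and 20 and 1257 of 1614 without replicate 3.

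LY6H allele 2 had the highest activity of the group in Neuro-2a and SH-SY5Y, and DTNB allele 2 in HEK-293T and PC-12. LY6H was present with 50 bases in front only. Allele 2 had 293, 253 and 347 counts in the 3 input libraries, a mean below which 2.31% of the Neuro-2a alleles lay, while allele 1 had 3637, 2379 and 3508. In Neuro-2a RNA, allele 2 had 1153, 4910 and 4085 counts and allele 1 5250, 3940 and 555. Allele 2 thus went from the scarcer allele of the input to the more abundant one in replicates 2 and 3, and its activity is relative to a small input count.

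The activity of LY6H allele 2 was 1.57, 4.30 and 4.13 in replicates 1, 2 and 3 of HEK-293T, 2.39, 4.39 and 4.32 in the Neuro-2a ones and 1.92, 4.91 and 4.62 in the SH-SY5Y ones. In replicates 1 and 3 of PC-12 it was 0.53 and 3.24. All 11 libraries were above the input, and replicate 1 was the lowest of each line. The 11 values share the same small input counts, so their signs are not independent. The fitted activity was 3.74 ± 0.78 (SE, n = 3) in HEK-293T, 3.95 ± 0.63 in Neuro-2a, 4.28 ± 0.81 in SH-SY5Y and 2.45 ± 0.84 (n = 2) in PC-12, with a median of 14.4-fold. It ranked 15 of 1471 alleles in Neuro-2a and 45 of 1614 in PC-12. Allele 1 was fitted at 0.36 to 0.86 in the 4 lines, with 9 of 11 libraries above the input.

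DTNB allele 2 had values of like size, with a like division between replicates. With 100 bases in front its activity was 1.50, 4.59 and 3.91 in HEK-293T, -0.84, 4.16 and 3.17 in Neuro-2a, 1.87, 4.07 and 4.51 in SH-SY5Y, with 0.54 and 3.84 in PC-12, each in replicate order. With 150 in front it was 1.30, 4.16 and 3.66, then 0.30, 2.92 and 3.13, 0.74, 3.87 and 4.20 and 0.02 and 2.65 in the same lines. Both fragments were high in each library of replicates 2 and 3 and lower in each replicate 1, and 1 value of the 22 was below the input. The fitted activity with 100 in front was 3.81 ± 0.79 (SE, n = 3) in HEK-293T, 3.19 ± 1.14 in Neuro-2a, 3.85 ± 0.70 in SH-SY5Y and 2.98 ± 0.98 (n = 2) in PC-12, with a median of 11.3-fold. With 150 in front it was 3.46 ± 0.72, 2.55 ± 0.72, 3.53 ± 0.86 and 1.87 ± 0.78, with a median of 8.02-fold.

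The input of DTNB was lower for the fragment with 100 in front, with 645, 599 and 729 counts in the 3 libraries, than for that with 150 in front, with 2297, 1971 and 2436. The latter had 4888, 26603 and 33505 counts in the RNA of SH-SY5Y, a larger base than that of the fragment with 100 in front. The fragment with 50 in front had values for PC-12 alone, with 3006 and 0 counts in replicates 1 and 3. It had 2449, 1955 and 2632 counts in the input, which was shared, so it was in the pool of the other lines too. Its fitted value of -0.55 ± 2.41 (SE, n = 2) places it neither above nor below the input.

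At ALMS1, allele 2 with 50 bases in front and allele 1 with 100 in front were above the input in all 11 RNA libraries. The former was at 1.20, 0.97 and 1.11 in HEK-293T, 0.57, 1.30 and 1.32 in Neuro-2a, 1.43, 1.52 and 1.20 in SH-SY5Y, with 1.55 and 1.67 in PC-12. The latter was at 1.46, 0.88 and 1.11 in HEK-293T, 1.45, 0.93 and 1.72 in Neuro-2a, 1.64, 1.12 and 0.83 in SH-SY5Y, with 2.43 and 1.71 in PC-12. Within each line these values lie closer together over the replicates than those of LY6H allele 2 and DTNB allele 2 with 100 or 150 in front. The fits ranged from 1.10 to 1.61 and from 1.17 to 2.11, medians of 2.37-fold and 2.50-fold. Allele 1 with 100 in front was the 1 allele of the 6 SNPs called above the input in all 4 lines by edgeR, and by limma-voom. DESeq2 called 7 there, these 2 and LY6H allele 2, DTNB allele 2 with 100 and with 150 in front, BRD1 allele 1 with 150 in front and PCNX1 allele 2 with 150 in front. In both directions it called 368 of 1561 of all alleles in HEK-293T and 410 of 1471 in Neuro-2a. It called 651 of 1614 in PC-12 and 483 of 1562 in SH-SY5Y. The share of all alleles called in every line was not counted.

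The other ALMS1 alleles were less even. Allele 2 with 100 in front was at 1.46, 1.51 and 0.98 in HEK-293T and at -1.50, -2.32 and 1.07 in SH-SY5Y. It had 65399 and 0 counts in PC-12, so that replicate 1 was high and replicate 3 empty there, as in Neuro-2a. Its fitted activity in HEK-293T was 1.34 ± 0.17 (SE, n = 3). Allele 1 with 150 in front was at 0.03, 1.33 and 1.61 in HEK-293T, -0.01, 1.10 and 0.71 in Neuro-2a, -0.21, 1.47 and 1.21 in SH-SY5Y, with 0.10 and 1.26 in PC-12, near the input in each replicate 1 and above it elsewhere. Allele 1 with 50 in front and allele 2 with 150 in front had few input counts, 142, 110 and 132 and 180, 169 and 230, and 5 of their 16 RNA values were 0.

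At BRD1 the placements of allele 1 lay on different sides of the input. With 150 bases in front, where only allele 1 was present, it was at 1.44, 0.02 and 1.56 in HEK-293T, 0.85, 1.28 and 1.30 in Neuro-2a, 1.03, 2.00 and 1.69 in SH-SY5Y, with 0.89 and 1.22 in PC-12, all 11 above the input. With 100 in front it was at -0.03, -1.28 and -1.54 in HEK-293T, 0.86, 0.05 and -0.40 in Neuro-2a, -0.95, -1.79 and -1.18 in SH-SY5Y, with -0.11 and -0.34 in PC-12, with 9 of 11 below. Its value of -1.26 ± 0.26 (SE, n = 3) in SH-SY5Y was the 1 call below the input by edgeR. With 50 in front it had 14887, 11949 and 16301 counts in the input, and it had no values for HEK-293T, which shared that input. Its RNA had 0, 7669 and 4293 counts in SH-SY5Y, 0, 3252 and 3897 in Neuro-2a and 74 and 3542 in PC-12. Replicate 1 was at or near 0 in all 3 of these lines. Allele 2 had medians over the lines of 0.10 with 50 in front and 0.12 with 100 in front. Its fits ran from -0.39 to 0.65 and from -0.74 to 0.64. With 100 in front its libraries ran from -1.60 to 1.08, with 1 more at 0 counts.

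PCNX1 allele 2 showed the same order of its placements with 150 and 100 in front. With 150 in front it was at 1.55, 0.77 and 0.74 in HEK-293T, 1.60, 1.72 and 1.67 in Neuro-2a, 0.80, 1.86 and 1.34 in SH-SY5Y, with 0.61 and 0.67 in PC-12, all 11 above the input. Allele 1 of that fragment was at 1.53, -0.13 and 0.48 in HEK-293T, 0.78, 0.94 and 0.34 in Neuro-2a, 1.44, 1.28 and 1.47 in SH-SY5Y, with 0.65 and 0.25 in PC-12, with 10 of 11 above. With 100 in front only allele 2 was present, below the input in 10 libraries (-2.78 to -0.12) and at 0 counts in HEK-293T replicate 2. In SH-SY5Y DESeq2 and limma-voom called it below the input, and edgeR did not. With 50 in front only allele 1 was present, and its fits ran from -0.68 ± 0.30 (SE, n = 2) in PC-12 to 0.71 ± 0.44 (n = 3) in HEK-293T.

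YWHAB had all its 6 alleles in each line and no count of 0, on input means of 4624 to 15956.3 counts. Outside PC-12 its fits lay between -0.50 and 0.75, and in PC-12 the fragments with 50 and 100 bases in front were higher. Allele 2 with 50 in front was at 1.27 and 1.40 in PC-12, against 0.18, 0.22 and -0.02 in HEK-293T, 0.35, -0.07 and 0.38 in Neuro-2a and 0.16, 0.25 and -0.25 in SH-SY5Y. Allele 2 with 100 in front was at 1.46 and 0.96 in PC-12, against 0.40, -0.69 and 0.21 in HEK-293T, 0.01, -0.24 and -0.14 in Neuro-2a and 0.59, 0.08 and -0.17 in SH-SY5Y. For both, the PC-12 values were above those of the other lines, as they were for allele 1 with 50 and 100 in front, given next. How many of all alleles had PC-12 apart in this way was not counted, and the fit between lines called 0 of 1436. Allele 1 with 50 in front was at 0.87 and 1.34 in PC-12, against 0.07, 0.78 and -0.08 in HEK-293T, -0.14, -0.40 and -0.37 in Neuro-2a and -0.55, -0.00 and -0.10 in SH-SY5Y.

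With 100 in front, YWHAB allele 1 was at 1.14 and 0.41 in PC-12, against 0.14, 0.07 and -0.43 in HEK-293T, -0.22, -0.65 and -0.67 in Neuro-2a and 0.29, -0.47 and -0.67 in SH-SY5Y. With 150 in front PC-12 did not stand above the other lines. Allele 1 was at -0.06 and -0.19 there, against -0.04, 1.21 and 0.62 in HEK-293T, -0.40, 0.83 and 0.32 in Neuro-2a and -0.05, 0.76 and 1.25 in SH-SY5Y. Allele 2 was at 0.06 and -0.44 there, against -0.03, -0.49 and -0.33, -0.05, 0.01 and -0.10 and 0.40, -0.22 and 0.09 in the same lines. Allele 1 thus lay below the input in each replicate 1 and above it in replicates 2 and 3 outside PC-12. Its fits there were 0.68 ± 0.34, 0.33 ± 0.34 and 0.75 ± 0.34 (SE, n = 3), and none passed by edgeR. With RNA replicate 1 left out they were 0.94 ± 0.20 in HEK-293T, 0.57 ± 0.17 in Neuro-2a and 1.05 ± 0.14 in SH-SY5Y (SE, n = 2). Their edgeR adjusted p were 0.0280, 0.0670 and 0.00487, and allele 2 was then called below in HEK-293T (-0.41 ± 0.08, edgeR adjusted p 0.0256). Replicate 1 was the lowest library of allele 1 in each, so leaving it out raises the fit. EdgeR then called 19.4%, 25.1% and 30.7% of all alleles above the input, so nothing is read from these calls. The PC-12 fits for alleles 1 and 2 were 1.13 ± 0.16 and 1.34 ± 0.07 (SE, n = 2) with 50 in front, 0.82 ± 0.25 and 1.23 ± 0.17 with 100, and -0.12 ± 0.12 and -0.17 ± 0.18 with 150.

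The RNA of 23 alleles of these SNPs was compared between lines in a fit of the 1436 alleles found in every table. By edgeR with Benjamini-Hochberg adjustment 0 of the 23 passed, as did 0 of the 1436 (0%). At an unadjusted p under 0.05 there were 3 of the 23, against 2.79% of all, and all 3 were YWHAB, with PC-12 highest. Allele 2 with 50 in front had an edgeR adjusted p of 0.395, and allele 1 with 50 in front one of 0.662. The third was allele 2 with 100 in front. With the RNA replicate number as a block in edgeR, 7 of the 23 were under that unadjusted p. The share of all alleles under it was not counted then. DESeq2 called both alleles with 50 in front, 2 of the 23 it called among all, and limma-voom called 0. The 4 lines differ in species and cell type at once, which cannot be told apart here.

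The allelic effect, the activity of allele 2 minus that of allele 1 in a fragment, was tested for 8 fragments in HEK-293T, 9 in Neuro-2a, 10 in PC-12 and 10 in SH-SY5Y. By edgeR 0 passed in each line, against 0%, 0.187%, 0% and 0.166% of all fragments. At an unadjusted p under 0.05 there were 0, 2, 1 and 2, against 4.13%, 10.9%, 7.24% and 13.5%. DESeq2 called 0, 4, 1 and 0, where it called 6 of 606, 68 of 534, 68 of 635 and 27 of 601 of all fragments. Its calls were LY6H, PCNX1 with 150 in front and YWHAB with 50 and 100 in front in Neuro-2a, and YWHAB with 100 in front in PC-12. Limma-voom called 0 in each line, of the 6 SNPs and of all. Without RNA replicate 1 edgeR called 2 in HEK-293T, 4 in Neuro-2a and 4 in SH-SY5Y, against 20.8%, 30.5% and 46.9% of all fragments.

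The LY6H allelic effect was 3.33 ± 1.39 (SE, n = 3) in HEK-293T, 3.73 ± 1.43 in Neuro-2a, 3.14 ± 1.17 in SH-SY5Y and 1.23 ± 1.26 (n = 2) in PC-12, with edgeR adjusted p of 0.677, 0.454, 0.355 and 0.617. The libraries were at 0.44, 4.91 and 4.13 in HEK-293T, 1.22, 3.73 and 6.29 in Neuro-2a, 0.59, 4.66 and 3.82 in SH-SY5Y, with -0.51 and 2.99 in PC-12. Allele 2 was ahead in 10 of 11, and by less in each replicate 1 (-0.51 to 1.22) than in any other library (2.99 to 6.29). Without RNA replicate 1 the effect was 4.51 ± 0.46 in HEK-293T, 4.998 ± 0.95 in Neuro-2a and 4.23 ± 0.34 in SH-SY5Y (SE, n = 2), with edgeR adjusted p of 0.00852, 0.0258 and 0.00173. Replicate 1 held the lowest value of each line, so leaving it out raises the effect. EdgeR then called 20.8%, 30.5% and 46.9% of all fragments in these lines, and the p-values are given as a description.

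At PCNX1 with 150 in front the allelic effect was 0.97 ± 0.27 (SE, n = 3) in Neuro-2a, at 0.82, 0.78 and 1.33 by library and an edgeR adjusted p of 0.379, and -0.07 ± 0.35 in SH-SY5Y. At YWHAB with 100 in front allele 2 was ahead in each library of Neuro-2a (0.23, 0.41 and 0.53), PC-12 (0.32 and 0.55) and SH-SY5Y (0.30, 0.55 and 0.50), while HEK-293T had 0.26, -0.76 and 0.65. The smallest edgeR adjusted p of these was 0.355. With RNA replicate 1 left out edgeR called PCNX1 in Neuro-2a, at 1.05 ± 0.21 (SE, n = 2; adjusted p 0.0303). It then also called YWHAB with 100 in front, at 0.47 ± 0.11 in Neuro-2a (edgeR adjusted p 0.0443) and 0.53 ± 0.07 in SH-SY5Y (edgeR adjusted p 0.00490), with -0.06 ± 0.47 in HEK-293T. At YWHAB with 150 in front the sign followed the replicate number, with 0.01 to 0.46 in each replicate 1 and -1.70 to -0.25 in the other 7 libraries. Without RNA replicate 1 the effect there was -1.32 ± 0.26 in HEK-293T, -0.62 ± 0.17 in Neuro-2a and -1.07 ± 0.09 in SH-SY5Y (SE, n = 2), with edgeR adjusted p of 0.0380, 0.0647 and 0.00181. Replicate 1 held the highest value of each line, so leaving it out lowers the effect. The p-values without replicate 1 are given as a description, since 20.8%, 30.5% and 46.9% of all fragments then passed.

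Placement was tested as the difference in activity of an allele between fragments. By edgeR 2 of 21 pairs passed in PC-12, against 4.25% of all pairs, and 0 of 15 in HEK-293T, 0 of 17 in Neuro-2a and 0 of 19 in SH-SY5Y, against 0.337%, 1.22% and 2.60%. At an unadjusted p under 0.05 there were 9 in PC-12, against 19.7%, and 1, 1 and 4 in the others, against 12.3%, 14.2% and 23.2%. DESeq2 called 14 in PC-12, where it called 442 of 1272 of all pairs, and 1, 1 and 5 in the others, against 187 of 1188, 186 of 1063 and 362 of 1193. Limma-voom called 5 and 0, 0 and 2, against 82 and 18, 41 and 76 of the same totals. Without any 1 input library, where 0 of all pairs were called, the PC-12 count was 0. With 1 RNA library left it was 20, where 1096 of 1270 of all pairs were called without replicate 1 and 872 of 1272 without replicate 3. Without RNA replicate 1 there were 3, 6 and 8 calls in HEK-293T, Neuro-2a and SH-SY5Y, against 25.3%, 29.5% and 49.4% of all pairs.

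One of the 2 pairs was YWHAB allele 2 in PC-12, whose difference of 150 over 100 in front was -1.40 ± 0.11 (SE, n = 2; edgeR adjusted p 0.0215), with -1.40 and -1.40 in its libraries. The same difference was -0.26 ± 0.25 in HEK-293T, 0.08 ± 0.20 in Neuro-2a and -0.08 ± 0.21 in SH-SY5Y (n = 3), and its change between lines was not tested. The other pair was ALMS1 allele 2 in PC-12, at -2.91 ± 0.19 for 150 over 100 in front with an edgeR adjusted p of 0.0333. Both fragments had 0 counts in replicate 3 there, so that value comes from replicate 1, in which the fragment with 150 in front had 123 counts. DESeq2 and limma-voom called the YWHAB pair and not this one.

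BRD1 allele 1 was higher with 150 than with 100 in front in 10 of 11 libraries. The differences were 1.47, 1.29 and 3.10 in HEK-293T, -0.01, 1.22 and 1.70 in Neuro-2a, 1.97, 3.79 and 2.87 in SH-SY5Y, with 1.00 and 1.56 in PC-12. The fits were 1.94 ± 0.55 (SE, n = 3), 0.98 ± 0.49, 2.88 ± 0.49 and 1.28 ± 0.23 (n = 2), with edgeR adjusted p of 0.295, 0.474, 0.0519 and 0.0789. None passed by edgeR, and DESeq2 and limma-voom both called the difference in SH-SY5Y and in PC-12, as DESeq2 did in HEK-293T. EdgeR called it without RNA replicate 1 in Neuro-2a, at 1.46 ± 0.20 (SE, n = 2; adjusted p 0.0116), and in SH-SY5Y, at 3.33 ± 0.32 (adjusted p 0.00246). Replicate 1 held the lowest difference of both lines, and 29.5% and 49.4% of all pairs were then called.

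PCNX1 allele 2 was higher with 150 than with 100 in front in all 10 libraries with counts, by 2.40, 1.89 and 1.80 in Neuro-2a, 2.42, 3.42 and 2.04 in SH-SY5Y, 0.91 and 2.66 in PC-12, and 2.30 and 3.52 in replicates 1 and 3 of HEK-293T. The fit was 2.03 ± 0.42 (SE, n = 3) in Neuro-2a with an edgeR adjusted p of 0.113, and 2.62 ± 0.48 in SH-SY5Y with 0.0597. DESeq2 called it in Neuro-2a, PC-12 and SH-SY5Y, and limma-voom in SH-SY5Y. EdgeR called it without RNA replicate 1 in Neuro-2a, at 1.84 ± 0.23 (SE, n = 2; adjusted p 0.00927), and in SH-SY5Y, at 2.73 ± 0.48 (adjusted p 0.0136). Its allele 1 with 150 against 50 in front differed by 0.93 ± 0.23 in SH-SY5Y and 1.19 ± 0.22 (n = 2) in PC-12, with edgeR adjusted p of 0.102 and 0.0802. DESeq2 called both of these, and limma-voom that in PC-12. DTNB allele 2 had the fragment with 100 in front ahead of that with 150 in 10 of 11 libraries, by -0.05 to -0.86 in the fits as 150 over 100, and none of these passed by edgeR, while DESeq2 called that in PC-12.

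Replicate 1 was compared with the other RNA replicates in a fit of line and replicate 1 over all 11 RNA libraries. The labels do not say whether a number marks a shared day or batch. By edgeR 4 of 23 alleles, named next, were lower in replicate 1, where 16.3% of all alleles were, and 0 were higher, where 5.85% were (22.1% in both directions). The share that was lower is near that of all alleles. At an unadjusted p under 0.05 there were 10 of the 23, and the share of all alleles at that threshold was not counted. DESeq2 called 5 lower and 6 higher, where it called 543 of 1436 of all alleles in both directions, and limma-voom 5 and 5, where it called 422. Without replicate 3 of each line edgeR called 0, of the 23 and of all.

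As replicate 1 over the others, DTNB allele 2 was at -3.23 ± 0.43 with 100 in front (SE, 4 libraries against 7; edgeR adjusted p 0.00117) and at -2.88 ± 0.18 with 150 in front (edgeR adjusted p 4.04e-05). LY6H allele 2 was at -2.57 ± 0.26 (edgeR adjusted p 3.06e-04) and ALMS1 allele 1 with 150 in front at -1.32 ± 0.16 (edgeR adjusted p 8.09e-04). In each of the 4 lines replicate 1 was below the other replicates for these alleles. Over all lines, LY6H allele 2 lay between 0.53 and 2.39 in replicate 1 and between 3.24 and 4.91 in the other libraries, and DTNB with 150 in front between 0.02 and 1.30 and between 2.65 and 4.20. LY6H allele 1 had the opposite order, with 1.04 to 1.33 in replicate 1 and -1.96 to 0.80 in the others, and a fitted difference of 1.04 ± 0.44 that did not pass by edgeR (adjusted p 0.136) and did by DESeq2 and limma-voom.

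Of the 19 alleles with counts in all 11 libraries, 4 had replicate 1 wholly below the other libraries and 1 wholly above, against 17.2% and 7.94% of all such alleles. Of 5 allelic effects 1 was wholly below (LY6H) and 1 wholly above (YWHAB with 150 in front), against 15.3% and 19.9%. Of 10 placement differences 1 was below (ALMS1 allele 1, 150 over 100 in front) and 1 above (YWHAB allele 1, 100 over 50 in front), against 13.8% and 13.5%. In the 7 libraries other than replicate 1, LY6H allele 2 and DTNB with 100 in front were at 3.17 or more. DTNB with 150 in front was at 2.65 or more there, and how many of all alleles reach such values was not counted. The highest value of ALMS1, BRD1, PCNX1 or YWHAB in any library was 2.85, above the lowest of DTNB with 150 in front. It was that of ALMS1 allele 1 with 50 in front in PC-12, on a mean of 128 input counts.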

How the data were processed

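Each of the authors' deposited tables gives raw read counts for a line, with columns for allele, replicate and input or RNA, per the file headers. Values are whole numbers that were not normalized. Per the labels' protocols, polyadenylated RNA of transfected cells was reverse-transcribed, and RNA and plasmid libraries were amplified by PCR and sequenced in 3 biological replicates. The submitters' processing notes list limma 3.40.6. Aligner, counter and build: not given in the sources used here. Alleles with 0 in all columns of a table were taken as absent. PCR reads are not independent molecules, so depth limits counting error only.

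Counts were fitted in R 4.3.3 with edgeR 4.0.16 (two-sided quasi-likelihood test, TMM scaling, minimum mean count of 10, Benjamini-Hochberg over all features of a fit, adjusted p under 0.05). Allelic and placement fits had library, feature and feature by RNA as terms, and each SE comes from the estimate and F. A library's activity is log2 of its RNA share over the mean input share, left blank at 0 counts. Alternatives were DESeq2 1.42.0, limma-voom (limma 3.58.1), DESeq2 size factors, other count minimums, 0 as missing, a replicate block and each library left out. The fits were run on simulated counts with large changes, the same spread for all features and no effect shared by replicate number. Those runs do not show how the fits handle such an effect or a lone library at 0. Centred within lines, RNA libraries that share a number in the column names correlated at 0.141 to 0.682 (15 of 15 pairs over 0.1). Replicate 1 pairs were at 0.5875 to 0.682 and the others at 0.141 to 0.477. PC-12 has only replicates 1 and 3, which mirror each other once centred, so its pairs are not independent. Blocking on the number left the calls between lines at 0, of the 23 alleles and of all. By rule, values per library were printed for fragments past a threshold in any fit and the rest by range and count, and a few of the rest are printed in full. Members, lists and tests were chosen with earlier results of these data known.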

Additional observations from a re-analysis of the deposited data

Results flagged for a closer look

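For 4 features every RNA library of one line lay on the other side of 0 from every RNA library of another. These were 3 of 22 activities, 0 of 7 allelic effects and 1 of 13 placement differences that had counts in every RNA library of 2 or more lines. Among all such features the shares were 8.17%, 5.35% and 4.82%. The difference between those 2 lines was not tested, and the fit over all lines passed by edgeR for none of the 3 alleles below, while DESeq2 called YWHAB allele 1 with 50 in front. PCNX1 allele 1 with 50 bases in front had mean activities of -0.82 in Neuro-2a and -0.74 in PC-12 against 0.47 in SH-SY5Y (edgeR adjusted p over the lines 1.00). YWHAB allele 1 with 50 in front had means of -0.30 in Neuro-2a and -0.22 in SH-SY5Y against 1.11 in PC-12 (edgeR adjusted p 0.662). YWHAB allele 1 with 100 in front had a mean of -0.51 in Neuro-2a against 0.77 in PC-12 (edgeR adjusted p 1.00). The placement difference of YWHAB allele 1, 150 over 50 in front, had a mean of 0.87 in SH-SY5Y against -1.23 in PC-12.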

How the results depend on the processing

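Of 167 recounts of calls, 107 were equal to the reported count or within 1.5 times of it, many of them 0 against 0. The cause of the other changes was not tested. Lines are given in the order HEK-293T, Neuro-2a, PC-12, SH-SY5Y. Activity calls (3, 4, 7 and 8) became 9, 8 and 14 in the first 3 with DESeq2. Of all alleles it called 368 of 1561, 410 of 1471 and 651 of 1614 there. With the replicate number of RNA and input as a replicate block the activity calls became 0 in each line, and of all alleles 1 was called, in SH-SY5Y. Of 11 correlations between RNA and input of the same number, 1 was over 0.1 (-0.0898 to 0.171). Low correlations cannot decide whether the number pairs RNA with input. Without 1 library the activity calls ranged from 0 to 11, 0 to 11, 0 to 25 and 0 to 15. Allelic calls (0 in each) became 4 in Neuro-2a and 1 in PC-12 with DESeq2, 1 in SH-SY5Y with 0 as missing, and 0 to 2, 0 to 4, 0 to 9 and 0 to 4 without 1 library. Placement calls (0, 0, 2 and 0) became 1, 1, 14 and 5 with DESeq2, 5 in PC-12 and 2 in SH-SY5Y with limma-voom, 1, 2, 7 and 3 with 0 as missing, and 0 to 3, 0 to 6, 0 to 20 and 0 to 8 without 1 library. A lone RNA library of PC-12 is assumed to vary like the input. For placement with 0 as missing, 64 of 1188, 97 of 1063, 229 of 1272 and 183 of 1193 of all pairs were called. Calls between lines (0) became 2 with DESeq2, and stayed at 0 with the replicate block and without any 1 replicate number. Replicate 1 calls (4) became 11 with DESeq2, 10 with limma-voom and 0 to 5 without 1 replicate number or line. Of 114 recomputed medians of a SNP in a line, 8 moved by more than the spread between libraries and 6 changed sign.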
